A study of Mus musculus with 10 samples.

Results

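The proteasome genes of mouse embryonic stem cells were taken as the coding symbols that start with Psm, a letter from a to g and a number. This rule gave 49 of the 14534 coding transcripts listed in the series, with 1 transcript per gene. They comprised 14 subunits of the 20S core, 17 of the 19S cap, 7 assembly factors, 4 inducible or tissue-specific 20S subunits (Psma8, Psmb8, Psmb9 and Psmb10), 5 activator subunits (Psme1, Psme2, Psme2b, Psme3 and Psme4) and the regulator Psmf1. Psmc3ip also matched by its name, but it encodes a partner of meiotic recombinases and no proteasome part, and it is kept only in counts over the 49 genes.

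The proteasome degrades proteins tagged with ubiquitin. Its 20S core is a barrel of alpha rings that gate the entrance and beta rings that hold the cutting sites, and its 19S cap recognises ubiquitin, removes it and unfolds the substrate with a ring of ATPases. Dedicated chaperones assist the assembly of the core and of the base of the cap and leave the finished particle, and stem cells are known to rely on a high proteasome activity.

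Ribosome footprints were sequenced in CGR8 cells, a feeder-free embryonic stem cell line of strain 129 kept in leukemia inhibitory factor, with 2 libraries for each condition. The cells received no inhibitor (control), 1 µM DMDA-PatA for 10 min, 2 µg/ml harringtonine for 10 min or 0.2 mg/ml puromycin for 20 min, and 2 further libraries held whole transcriptome reads of untreated cells. DMDA-PatA is a pateamine A analog that acts on the initiation factor eIF4A, harringtonine blocks ribosomes soon after initiation, and puromycin releases unfinished chains. All conditions shared the same amount of the solvent DMSO and cycloheximide during washing and lysis, and the methods speak of biological replicates without saying whether these were separate cultures, so p-values may measure only the spread between these libraries.

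The coding ORFs held 9104220 and 10614247 control footprints, between 618334 and 1944784 footprints in the 6 drug libraries, and 16649611 and 38046741 whole transcriptome reads. Values are normalized reads, for which the authors used spike-in reads to scale the footprint libraries and the replicates themselves to scale the transcriptome. The means that the study gives for DMDA-PatA and harringtonine per transcript follow, where they could be matched, from the reads with the factors of these drugs exchanged, and which assignment is right was not settled, so the folds of both drugs carry this doubt. With the exchange the median fold inhibition of the 19S cap, for example, was 21.3 in place of 24.0 with DMDA-PatA and 7.19 in place of 6.38 with harringtonine. Over 8532 coding transcripts with at least 100 control footprints, the factors as deposited gave medians of 22 with DMDA-PatA and 8.7 with harringtonine. The study reports the same rounded medians for its own set of well expressed transcripts. These medians were not computed with the exchange. All 10 stem cell markers examined, such as Pou5f1 and Nanog, had reads in every library. Of 9 markers of other cells, the collagen genes Col1a1 (85853 and 210557 transcriptome reads) and Col1a2 (18670 and 42817) were abundant, while the other 7 had between 2 and 458 transcriptome reads, with Thy1, also known from fibroblasts, at 77 and 192. Their part in the results was not tested, and in bulk samples fewer cells of a type and less RNA per cell cannot be told apart. The replicates differed in level, as is visible in many of the values below, where DMDA-PatA replicate 2 often lies above replicate 1 and harringtonine replicate 2 below it.

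To show the sites at which ribosomes start on members that carry the results, the sequences around the start codon are given with the start codon in capitals, 5′ to 3′, from the GENCODE M21 transcripts (GRCm38, the build also called mm10). Psmb6 and Psmb7 encode catalytic beta subunits, Psmd14 the cap's deubiquitinase, Psma7 an alpha subunit, Psmc4 a cap ATPase and Psmd6 a cap subunit without ATPase activity.
Psmb6: agcagaggaagATGgcggccgcctta
Psmb7: tttcttggcaagATGgcggctgtgtcg
Psmd14: ctgaacagaaatATGgacagacttctt
Psma7: gcgtccgcagtgATGagctacgaccgc
Psmc4: ggcttggtcactATGgaggagataggc
Psmd6: tgtgctgtagccATGccgctagaaaac
The 11 bases before the start codon are the whole listed 5' UTR of Psmb6, which lies on the plus strand at chr11:70525386-70527649 (6 exons). The other listed transcripts lie at chr2:38588036-38644087 (Psmb7, minus strand), chr2:61711694-61800376 (Psmd14, plus strand), chr2:180036374-180042433 (Psma7, minus strand), chr7:28041707-28050101 (Psmc4, minus strand) and chr14:14112174-14120984 (Psmd6, minus strand). A purine stood 3 bases before the start codon in 37 of 41 members with a matched start codon, or 90.2%, against 85.04% of 11033 coding transcripts. The listed 5' UTRs of the members had a median of 112 nt, against 164 nt over all coding transcripts.

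In untreated cells the 49 genes took 1.16% and 1.20% of the control footprints on coding ORFs, but 0.635% and 0.631% of the whole transcriptome reads. Per kb of ORF, control footprints of the 20S core had a median of 3288 normalized reads, those of the 19S cap 3078 and those of the assembly factors 922. The medians of the control replicates were 3161 and 3472 for the core, 3282 and 2875 for the cap, and 1028 and 843 for the assembly factors. The assembly factors thus lay below core and cap in both replicates, while core and cap changed their order between replicates. As reads with multiple matches were left out, genes with processed copies elsewhere lose reads. Among the 5 core subunits with at most 10% of their 30 nt words at 2 or more places of the genome the median was 5566, and among the 14 such cap subunits it was 3590.

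**Figure D1:**
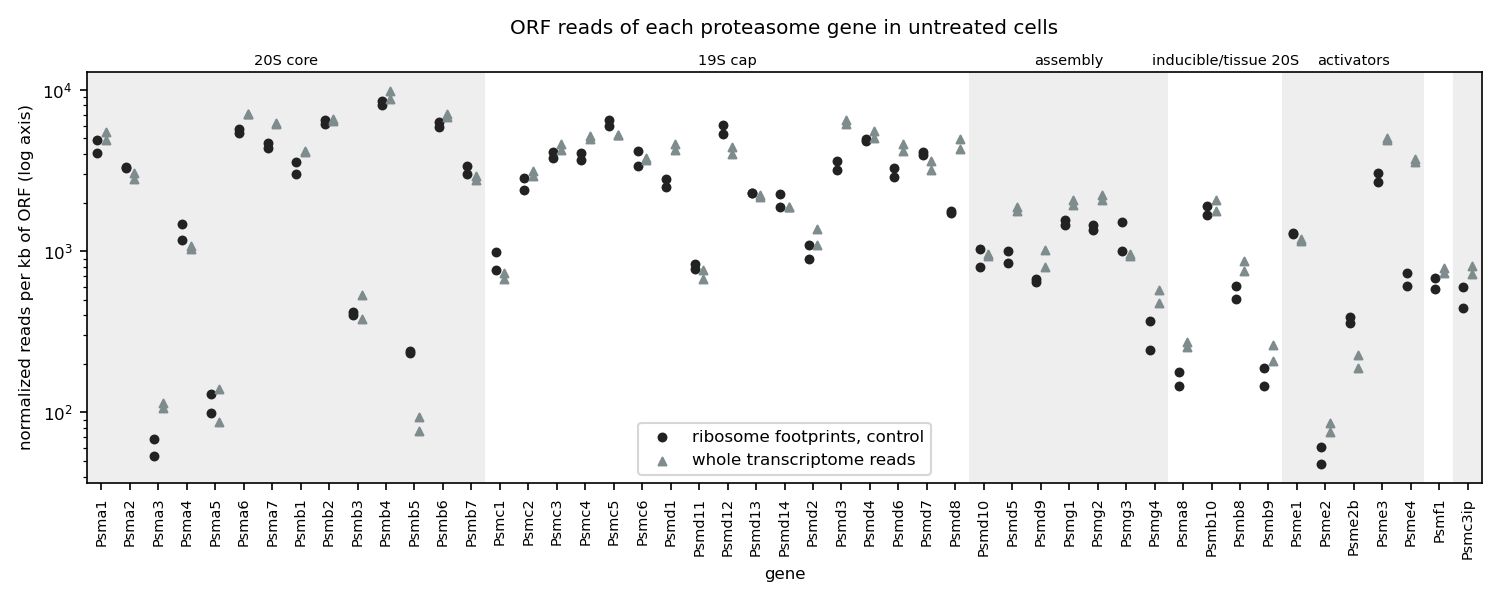
Normalized reads per kb of ORF on a log axis for each proteasome gene, with 1 point per library (circles, control footprints, and triangles, whole transcriptome reads, 2 libraries each). Assembly factors sit below most core and cap subunits, and Psma3, Psma5, Psmb3 and Psmb5 sit below the other core subunits.

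The highest control level was that of Psmb4, a beta subunit without a cutting site, with 8267 normalized footprints per kb, and the highest of the cap was that of the ATPase Psmc5 with 6235. Psma3, an alpha subunit, was lowest in the core with 61.3 footprints per kb. Of its 30 nt words 75.8% occurred at 2 or more places, and this share was 76.2% for Psma5, 82.3% for Psmb3 and 72.1% for Psmb5, which were also low. Across the 49 genes the share of such words and the footprints per kb had a Spearman correlation of -0.27, given as a description only. Control footprints and transcriptome reads per kb had one of 0.94, and the share of such words and the transcriptome reads per kb one of -0.38.

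The catalytic subunits show how far such levels can be read. Psmb5, the chymotrypsin-like subunit, held 189.8 and 184 normalized control footprints, Psmb6, the caspase-like subunit, 4534 and 4228, and Psmb7, the trypsin-like subunit, 2491 and 2822. The 3 subunits stand in equal numbers in the core, but the control libraries of Psmb5 stayed far below those of the others. Of the 30 nt words of Psmb6 15.8% and of those of Psmb7 19.3% occurred at 2 or more places. How much of the difference this makes was not tested.

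Translation efficiency, the control footprints against the whole transcriptome reads on the ORF, was higher than that of the bulk of coding transcripts for 47 of the 49 genes, against 34.2% raised and 36.5% lowered among 13717 transcripts (edgeR's quasi-likelihood test on TMM-scaled reads, Benjamini-Hochberg adjusted p of 0.05). The members' median log2 ratio was 1.24, against -0.04 over all transcripts tested. All 14 core subunits (median 1.31), 16 of 17 cap subunits (1.34) and the 7 assembly factors (1.00) were raised. Psma3 lost its call without control replicate 2 or either transcriptome library, and Psmg4 without control replicate 1 or transcriptome replicate 2. The activator subunit Psme2 lost its call without control replicate 2 or transcriptome replicate 2.

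Psme4, the large activator PA200, was the 1 member with a lowered efficiency. It held 4033 and 3341 normalized control footprints and 20598 and 19862 transcriptome reads, and its log2 ratio was -1.01 ± 0.09 (SE, n = 2, edgeR adjusted p = 1.7e-07). Psmd8, a lid subunit of the cap, did not pass, with 1813 and 1871 footprints, 5224 and 4554 transcriptome reads and a log2 ratio of 0.05 ± 0.10 (edgeR adjusted p = 0.67). Psmd5, a chaperone of the cap's ATPase ring, had the lowest of the raised values at 0.46 ± 0.10.

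The highest ratios were those of Psmb5 (2.95 ± 0.18), of Psme2b (2.33 ± 0.15), an intronless copy of the activator gene Psme2, and of the lid subunit Psmd12 (1.89 ± 0.09). Psmd12 held 8327 and 7335 normalized footprints against 6037 and 5508 transcriptome reads, and 2.02% of its 30 nt words occurred at 2 or more places. For Psmb5 the transcriptome held 48 and 94 reads, and its words with 2 or more places made up 72.1%. For Psme2b such words made up 53.1%, and the part of reads from Psme2 in its ratio was not tested. Across the 49 genes this share and the log2 ratio had a Spearman correlation of 0.41, a description over genes that share the same 4 libraries.

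With DMDA-PatA the ORF footprints of all 49 genes fell, in a comparison in which 99.8% of 12298 transcripts tested were lowered (edgeR's quasi-likelihood test on the authors' spike-in scale, Benjamini-Hochberg adjusted p of 0.05). In each of the 49 genes both DMDA-PatA libraries lay below both control libraries. The share of all transcripts that did so was not computed, so this count cannot set the members apart from other transcripts. The median log2 fold change of the members was -4.24, against -4.33 over all transcripts tested. Per the study's methods the spike-in was added per mass of total RNA, so the values are footprints per mass of RNA and not per cell.

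Among the catalytic subunits, Psmb5 kept 6.94 and 13.0 normalized footprints with DMDA-PatA, Psmb6 198.9 and 444.8, and Psmb7 215.9 and 366.9. Replicate 2 was the higher library in each of them, and no drug library reached a control library. Their log2 fold changes were -4.24 ± 0.50 for Psmb5, -3.77 ± 0.44 for Psmb6 and -3.19 ± 0.44 for Psmb7 (SE, edgeR). Psmb7 had the third smallest decrease of the 49 genes. Set against the bulk of transcripts by TMM scaling, Psmb7 lay 1.02 ± 0.22 above it (edgeR adjusted p = 0.00091), whereas Psmb5 (-0.02 ± 0.37) and Psmb6 (0.41 ± 0.44) did not pass.

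Psmd14 had the largest decrease. Its control libraries held 2104 and 1736 normalized ORF footprints and its DMDA-PatA libraries 17.0 and 10.6, which rest on 27 and 13 reads. The log2 fold change was -7.09 ± 0.50 (edgeR adjusted p = 5.6e-31), a fold inhibition of 139 with 123 and 165 in the replicate pairs. Psmd1, the large scaffold of the cap's base (7955 and 7153 footprints in control, 90.3 and 105.5 with DMDA-PatA), and Psme3, the nuclear activator PA28 gamma (2057 and 2311 in control, 27.8 and 32.5 with the drug), followed with -6.27 ± 0.46 and -6.18 ± 0.47. For these 3 genes the replicates lay close together beside the distance to the control.

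The smallest decreases were those of Psma3 at -2.62 ± 0.54 and of Psmd6 at -2.94 ± 0.44. Psmd6 held 3830.2 and 3355 normalized footprints in control and 385.7 and 553.6 with DMDA-PatA. Psma3 rests on 9 and 12 reads with the drug and on 35 and 58 in control. The groups did not overlap in either gene.

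**Figure D2:**
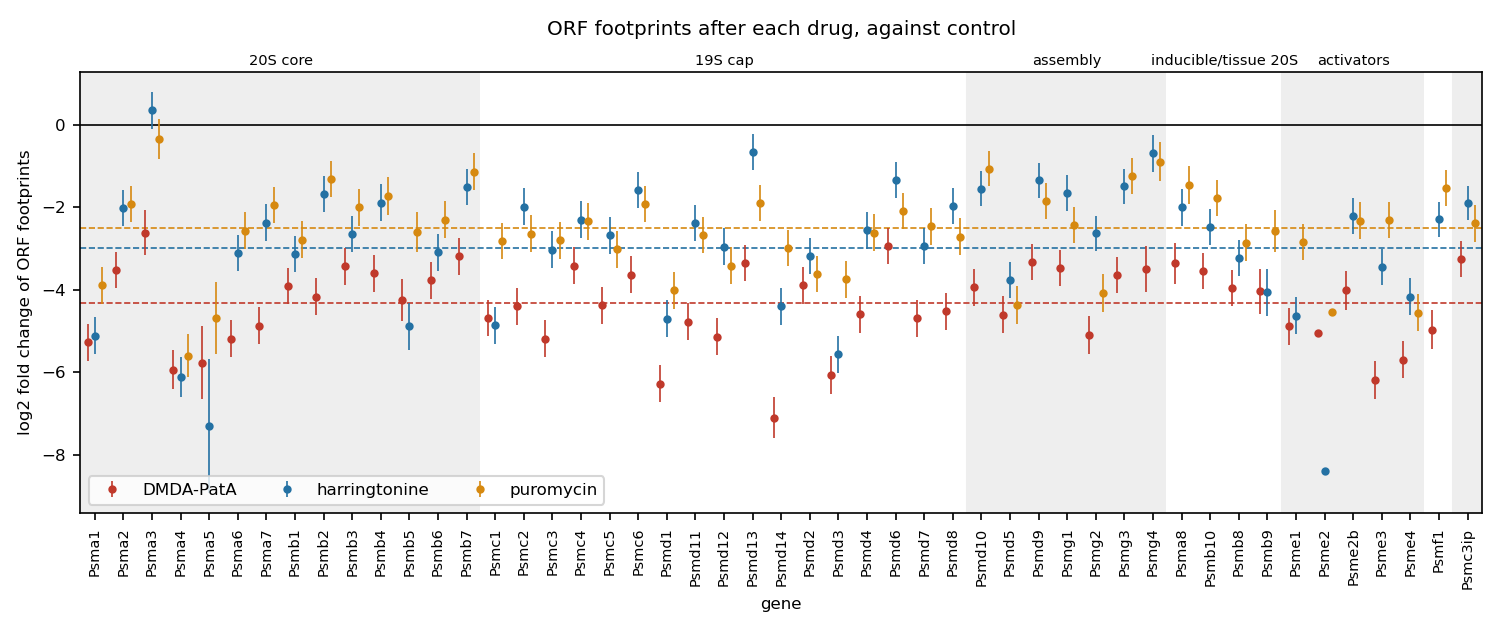
The log2 fold change of ORF footprints against control for each proteasome gene and each drug, with bars for the SE (edgeR, n = 2 libraries; none is drawn for Psme2, whose harringtonine libraries were at 0) and dashed lines for the median of all 12298 transcripts tested in the colour of the drug. Psmd14 is the lowest with DMDA-PatA at -7.09, and Psma3 is the only point above 0, at 0.34 with harringtonine.

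By class, the median fold inhibition with DMDA-PatA was 16.5 for the 20S core (24.9 and 13.0 in the replicate pairs), 24.0 for the 19S cap (33.8 and 18.2) and 12.5 for the assembly factors (19.4 and 9.71). Cap, core and assembly factors kept this order in both pairs, but the pairs of each class lay further apart than neighbouring classes did. The core value moved to 29.1 when the 9 subunits with over 10% of their words at 2 or more places were left out, while the cap with the same limit was at 23.5, which reverses their order. Within the core, the alpha subunits had a median log2 fold change of -5.19 and the beta subunits one of -3.77.

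Relative to the bulk of transcripts, 15 members were raised and 16 lowered with DMDA-PatA, against 18.6% raised and 23.5% lowered of all transcripts tested. Of the alpha subunits 4 of 7 were lowered and 2 raised, and of the beta subunits 3 of 7 were raised and the other 4 did not pass. In the cap 7 of 17 were lowered, with Psmd14 (-2.79 ± 0.31) and Psmd1 (-2.002 ± 0.20) at the end, and 4 were raised, with Psmd6 highest (1.31 ± 0.18). Without DMDA-PatA replicate 2 the calls came to 8 raised and 10 lowered, and Psma3 was among those lost.

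With harringtonine 46 of the 49 genes fell on the ORF, against 93.9% of all transcripts tested. The members' median log2 fold change was -2.64, against -2.99 over all. Psma3 (0.34 ± 0.44, edgeR adjusted p = 0.45), the lid subunit Psmd13 (-0.67 ± 0.44, adjusted p = 0.14) and the core chaperone Psmg4 (-0.70 ± 0.44, adjusted p = 0.12) did not pass. Psmd13 held 2145 and 1106 normalized footprints with harringtonine against 2597 and 2571 in control, so that both libraries lay below control and the replicates stood far apart. Psmd6 and Psmg3 lost their call without control replicate 1.

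The catalytic subunits differed in level after harringtonine. Psmb5 held 6.09 and 6.30 normalized footprints, Psmb6 209.0 and 813.4, and Psmb7 933.4 and 928.8. All lay below their control libraries, and the replicates of Psmb6 were the only ones of the 3 that stood apart. The log2 fold changes were -4.89 ± 0.57 for Psmb5, -3.10 ± 0.44 for Psmb6 and -1.51 ± 0.44 for Psmb7 (SE, edgeR). For Psmb6 the value was -4.39 without harringtonine replicate 2 and -2.43 without replicate 1.

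The largest decreases with harringtonine were those of the activator subunit Psme2 and of the alpha subunits Psma5 and Psma4. Psme2 had 34.2 and 43.5 normalized footprints in control and no read in either harringtonine library, which makes it at least 15.1-fold lower with a floor of 3 reads per library. Psma4 held 1158 and 916 normalized footprints in control and 23.3 and 7.70 with harringtonine, a log2 fold change of -6.11 ± 0.49. Psma5 had no read in replicate 1 and 0.700 normalized footprints, or 1 read, in replicate 2, against 71.9 and 94.3 in control. All 3 genes share 48.0% or more of their 30 nt words with other places.

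By class the median fold inhibition with harringtonine was 7.41 for the core (5.77 and 7.21 in the replicate pairs), 6.38 for the cap (6.06 and 8.01) and 2.94 for the assembly factors (2.51 and 3.82). The assembly factors lay below core and cap in both pairs, while core and cap changed their order between the pairs and the mean libraries. Relative to the bulk 22 members were raised and 14 lowered, against 26.3% and 29.9% of all transcripts tested. Of the 7 assembly factors 5 were raised, Psmg4 most (2.14 ± 0.27), and 1 was lowered. Of the 5 activator subunits 4 were lowered. Among these, Psme3 lost its call without control replicate 2 or harringtonine replicate 2, and Psme2 had no harringtonine read.

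With puromycin 47 of the 49 genes fell on the ORF, against 91.1% of all transcripts tested, with a median log2 fold change of -2.57 beside -2.50 over all. Psma3 (-0.35 ± 0.48, edgeR adjusted p = 0.48) and Psmg4 (-0.90 ± 0.47, adjusted p = 0.059) did not pass. Among the catalytic subunits Psmb5 held 16.5 and 42.3 normalized footprints, Psmb6 1013 and 764.7, and Psmb7 1224 and 1194. All of them lay below control, and the fall of Psmb7 by 1.14 on the log2 scale was lost in the fits without either control library or either puromycin library. Psmd10 and Psmg3 lost theirs without control replicate 1 or either puromycin library, Psmb2 without control replicate 1 or puromycin replicate 1, and Psma8 without control replicate 1.

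The largest decreases with puromycin were those of Psma4 (-5.59 ± 0.52), Psma5 (-4.68 ± 0.88) and Psme4 (-4.55 ± 0.45). Psme4, with 5529 nt the longest ORF of the 49, held 126.1 and 186.5 normalized footprints against 4033 and 3341 in control. The smallest decrease that passed was that of Psmd10, the cap chaperone also known as gankyrin, with 219.2 and 176.6 footprints against 465.7 and 363.5 and a log2 fold change of -1.07 ± 0.43. Its ORF has 453 nt. Across the 49 genes ORF length and the log2 fold change with puromycin had a Spearman correlation of -0.48, beside -0.57 across 12259 transcripts, both given as descriptions over genes of the same libraries.

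The class medians of fold inhibition with puromycin were 4.49 for the core (4.54 and 4.11 in the replicate pairs), 6.54 for the cap (7.14 and 6.28) and 3.61 for the assembly factors (3.48 and 3.76). The replicate pairs of the classes did not overlap. As a ratio of summed footprints the assembly factors were at 5.59 and the core at 4.08, which reverses their order. The median ORF lengths of the classes were 741 nt, 1218 nt and 666 nt, in the same order as the inhibition, and the part of ORF length in it was not tested. Relative to the bulk 14 members were raised and 10 lowered, against 24.1% and 24.9% of all transcripts tested. Of the 7 beta subunits 3 were raised, and of the 11 cap subunits without ATPase activity 4 were lowered.

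The drugs were also compared with each other, with 10 min for DMDA-PatA and harringtonine and 20 min for puromycin. Below the harringtonine level, DMDA-PatA left 34 of the 49 genes lower, against 53% of all transcripts tested. Below the puromycin level it left 41 lower, against 67.9%. Of the cap 14 of 17 subunits were lower with DMDA-PatA than with harringtonine, and of the core 7 of 14. In both comparisons some calls were lost when a library was left out, most of all without DMDA-PatA replicate 1.

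Harringtonine and puromycin differed in 6 genes. Psmb5, the ATPase Psmc1, the lid subunit Psmd3, the activator subunit Psme1 and Psmd14 were lower with harringtonine, against 10.1% of all transcripts tested, and the core chaperone Psmg2 was higher, against 1.1%. Psmd3 held 158.3 and 72.1 normalized footprints with harringtonine and 401.2 and 405.4 with puromycin. Psmg2 held 251.6 and 107.1 with harringtonine and 43.4 and 85.8 with puromycin. All 6 calls were lost without puromycin replicate 2, 4 of them without puromycin replicate 1, and 13 members were called lower without harringtonine replicate 1. With the factors of DMDA-PatA and harringtonine exchanged, 17 were lower and 2 higher with harringtonine.

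The 5' UTR behaved differently from the ORF. Psmb5, with a listed 5' UTR of 4 nt, has no 5' UTR value, 30 members had enough 5' UTR reads for the test, and 18 did not pass the filter on low values, among them Psmb6 with no 5' UTR read in any library. With DMDA-PatA the 5' UTR footprints of 16 members rose, against 14.7% of 6647 transcripts tested, and those of 3 fell, against 29%. The median log2 fold change of the members tested was 1.33, against -0.48 over all. Without control replicate 2 the calls came to 8 raised, and all 3 falls were lost. Psma5, Psma7, Psmb4, Psmc4 and Psmd9 would not have passed the filter without the DMDA-PatA libraries, in which they were high, so their rise is not independent of it. Leaving these 5 aside, 11 of 25 rose and 3 fell.

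With the 5 genes included, 7 of 8 core members tested rose with DMDA-PatA, 6 of 11 of the cap and 3 of 5 assembly factors. Class counts without these 5 genes were not computed, so the counts by class are not independent of the filter. Psma7, among the 5, had 1 and 4 reads on its 5' UTR of 60 nt in control. With DMDA-PatA it had 115 and 169, or 72.6 and 137.2 normalized footprints, a log2 fold change of 5.31 ± 0.82. Psmd6 had 2 and 1 reads in control and 58 and 81 with the drug, with a log2 fold change of 4.94 ± 0.99. Psmc4, also among the 5, had no read in either control library and 76 and 64 with DMDA-PatA. This was at least 15.97-fold higher with a floor of 3 reads per library.

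The lowest of these DMDA-PatA libraries lay far above the highest control library in all 3 genes, while the ORF footprints of the same genes fell. In the whole transcriptome, reads on these 5' UTRs numbered 58 and 55 for Psma7, 143 and 390 for Psmd6, and 97 and 217 for Psmc4. The regions thus held RNA reads in untreated cells although few footprints lay there. Psmb4, which like Psma7 and Psmc4 passed the filter only through DMDA-PatA, went from 4 and 7 reads in control to 65 and 103 (3.44 ± 0.67).

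The 3 genes whose 5' UTR footprints fell were the ATPases Psmc2 (-1.73 ± 0.73) and Psmc3 (-1.35 ± 0.45) and the activator Psme3 (-1.57 ± 0.47). Psme3 held 96.7 and 116.0 normalized 5' UTR footprints in control and 29.7 and 42.2 with DMDA-PatA. Psmc2 rests on 11 and 18 control reads and on 4 and 8 with the drug. In all 3 genes the drug libraries lay below the control libraries, but besides control replicate 2 the calls also needed DMDA-PatA replicate 1 for Psmc2 and Psmc3 and control replicate 1 for Psmc2.

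**Figure D3:**
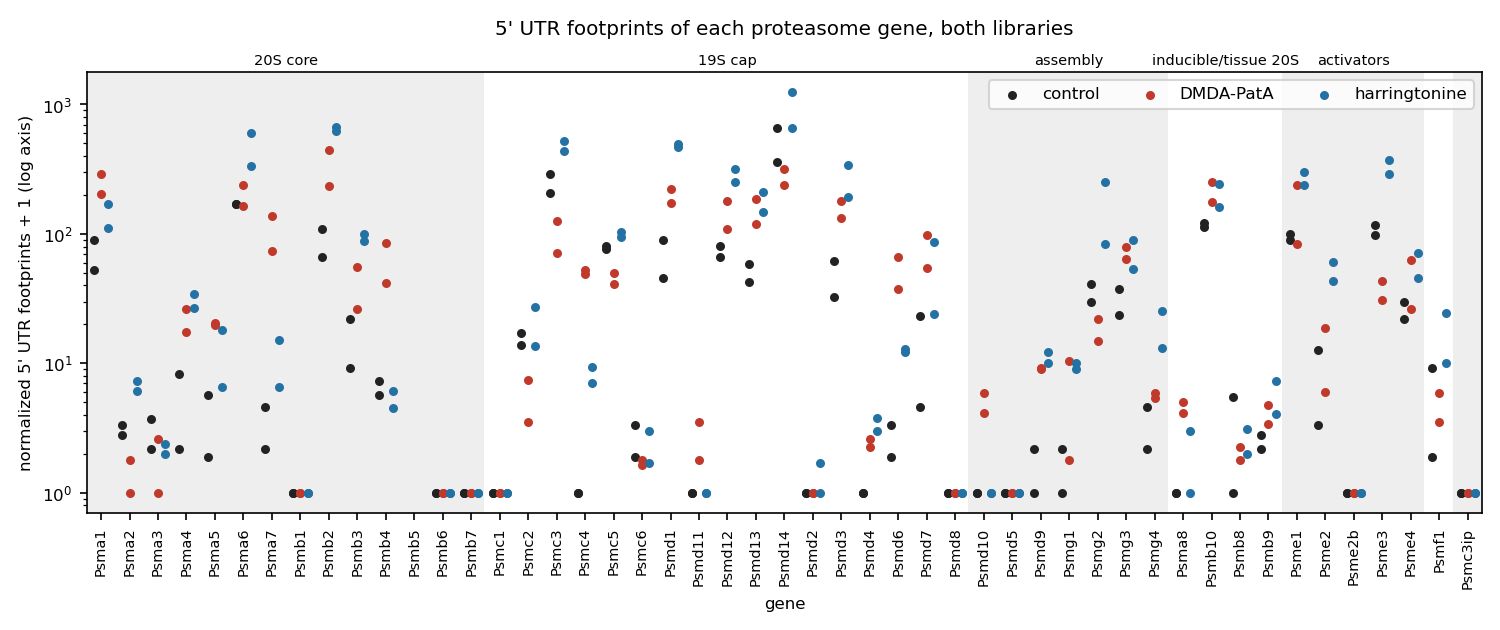
Normalized 5' UTR footprints plus 1 on a log axis for each proteasome gene, with 1 point for each of the 2 libraries of control, DMDA-PatA and harringtonine. Psma7, Psmc4 and Psmd6 stand near the bottom in control and well above it with DMDA-PatA, and Psmb5 has no value.

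With harringtonine 22 of the 30 members tested rose on the 5' UTR, against 35.1% of all transcripts tested, and the other 8 did not pass. The median was 1.91, against 0.88 over all. All 5 assembly factors tested rose, among them Psmg2, with 40.1 and 29.0 normalized footprints in control against 251.6 and 82.6 with harringtonine. Of these calls, Psmg1, Psmd9 and Psmg3 were lost without control replicate 2, Psmg3 and Psmg4 without control replicate 1, Psmg2 and Psmg3 without harringtonine replicate 1, and Psmg3 without either puromycin library. Psmg4 and the regulator Psmf1 would not have passed the filter without the harringtonine libraries. Psmb4, which rose with DMDA-PatA, had 5 and 5 reads with harringtonine against 4 and 7 in control (-0.41 ± 0.81, edgeR adjusted p = 0.71). Without control replicate 2 the calls came to 11 and without harringtonine replicate 1 to 14.

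With puromycin 1 of the 30 members rose, against 0.557% of all transcripts tested. This was Psmd1, with 89.6 and 44.4 normalized 5' UTR footprints in control and 304 and 227.6 with puromycin (1.99 ± 0.46, edgeR adjusted p = 0.0072). The call was lost when any of its 4 control or puromycin libraries was left out. Its 5' UTR footprints also rose with DMDA-PatA (1.57 ± 0.46) and with harringtonine (2.85 ± 0.45), while its ORF was among the most reduced with DMDA-PatA. The 5' UTR call with DMDA-PatA was lost without control replicate 2.

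The change of the 5' UTR against that of the ORF was tested within each library. It was raised in all 30 members with DMDA-PatA, in 29 with harringtonine and in 27 with puromycin, against 93.6%, 95.4% and 78.3% of the 6497 transcripts tested. The members' median log2 terms were 6.14, 4.94 and 3.26, against 4.36, 4.00 and 2.55 over all. With DMDA-PatA the core had a median of 7.04, the cap 6.24 and the assembly factors 4.92. These counts and medians include Psma5, Psma7, Psmb4, Psmc4 and Psmd9, which passed the 5' UTR filter only through the DMDA-PatA libraries. They also include Psmg4 and Psmf1, which passed it only through the harringtonine libraries. The terms of these genes with the drug in question are thus not independent of the filter.

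With DMDA-PatA the largest terms were those of Psmc4, whose control is at 0, Psma7 (10.11 ± 0.70) and Psma5 (8.59 ± 1.15), and the smallest those of the other ATPases Psmc2 (2.64 ± 0.57), Psmc5 (3.63 ± 0.37) and Psmc3 (3.804 ± 0.32). Psmc4, Psma7 and Psma5 all passed the 5' UTR filter only through the DMDA-PatA libraries. With harringtonine the largest were Psme2, with an ORF at 0, Psma5 (9.23 ± 1.78) and Psma4 (8.85 ± 0.78), and the smallest Psmb4 (1.52 ± 0.71), which did not pass, Psmc2 (2.31 ± 0.44) and Psmd13 (2.58 ± 0.36). With puromycin Psmg4 (-0.71 ± 2.01), Psmf1 (1.04 ± 1.10) and Psmc2 did not pass, Psmg3 had the smallest term that passed (1.25 ± 0.46) and lost its call without either control library or puromycin replicate 2, and Psma4 (7.21 ± 0.86) and Psmd1 (6.03 ± 0.36) were among the 3 largest with Psmc4. The ATPases Psmc2 and Psmc4 thus stood at opposite ends with DMDA-PatA.

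**Figure D4:**
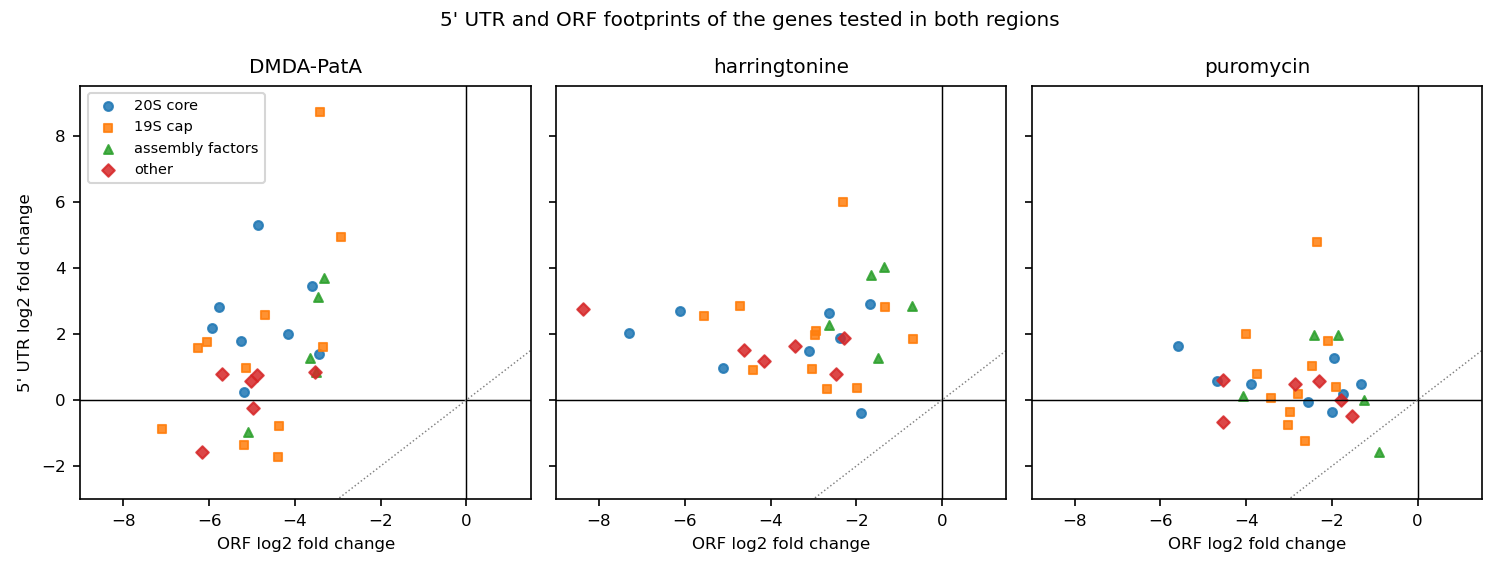
The log2 fold change of 5' UTR footprints (vertical axis) against that of ORF footprints (horizontal axis) for the 30 proteasome genes tested on both, in a panel per drug, with symbols for the class and a dotted line where both changes are equal. All points lie left of 0, all but that of Psmg4 with puromycin lie above the dotted line, and Psmc4 is the highest point in each panel.

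Summed over the members, the 5' UTR share of the 5' UTR and ORF reads was 1.60% and 1.48% in control. DMDA-PatA brought it to 32.2% and 31.6%, harringtonine to 20.1% and 21.3%, and puromycin to 10.1% and 8.74%. Over all coding transcripts the same 4 conditions had 4.01% and 4.27%, 38.2% and 38.6%, 29.1% and 32.8%, and 20.4% and 17.7%. The members lay below all coding transcripts in every one of these libraries. In the transcriptome the members' share was 2.96% and 2.77%, also below the 4.18% and 3.97% of all coding transcripts. The median share per gene with DMDA-PatA was 46.7% ± 4.7 (SD of the 2 libraries) in the core, 10.4% ± 2.7 in the cap and 15.7% ± 0.47 in the assembly factors. Taken over summed reads these shares were 33.3%, 27.4% and 25.5%.

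Among features of the 5' UTR sequence, the longest run of purines and the log2 fold change of 5' UTR footprints with DMDA-PatA had a Spearman correlation of -0.56 over the 28 members tested that had a matched 5' UTR of 25 nt or more, and of -0.34 over 5105 transcripts. Length had -0.39 and -0.53, and longer 5' UTRs can hold longer runs. The 28 members include Psma5, Psma7, Psmb4, Psmc4 and Psmd9, which passed the 5' UTR filter only through the DMDA-PatA libraries, in which they were high. The relations in the members are thus not independent of the filter, and they were not computed without these genes. Psma7 has a longest run of 3 purines in 60 nt, Psmd6 of 6 in 101 nt, Psmc2 of 9 in 274 nt and Psmc3 of 10 in 148 nt. Psmd14, with the largest loss on the ORF, has one of 17 in 312 nt, but Psmd1, with the next largest, has one of 8 in 171 nt. For the ORF change relative to the bulk with DMDA-PatA, the longest run had -0.26 over 40 members and -0.23 over 8987 transcripts. The relations given are among 24 computed, and all are descriptions across genes of the same libraries.

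Beside the members, 25 of 26 further genes of the ubiquitin and proteasome pathway were listed and 23 were tested on the ORF. DMDA-PatA lowered all 23 (median log2 fold change -5.40), harringtonine likewise (-3.35), and puromycin lowered 22 (-2.84), where 99.8%, 93.9% and 91.1% of all transcripts were lowered with medians of -4.33, -2.99 and -2.50. The core chaperone Pomp fell by 4.14, 2.45 and 1.93 on the log2 scale with DMDA-PatA, harringtonine and puromycin. Sem1, a small lid subunit outside the naming rule, was at -0.86 with puromycin and did not pass. On the 5' UTR, 5 of 20 tested rose and 4 fell with DMDA-PatA, against 14.7% and 29% of all transcripts. With harringtonine 13 rose, against 35.1%, and 1 fell, as did 346 of the 6647 transcripts tested.

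On the 3' UTR 6 members were tested. Psmd10, Psmg4 and the lid subunit Psmd7 fell with DMDA-PatA, against 35.1% of 1303 transcripts tested, and Psmd10 and Psmg4 fell with harringtonine and with puromycin, against 21.6% and 16.7%. Psmd10 had 66 and 89 reads on its 3' UTR in control, while DMDA-PatA left 5 and 4, harringtonine 6 and 6, and puromycin 0 and 4. Psmg4 had 33 and 21 reads in control, more than its 0 to 6 reads in each drug library. Both genes passed the filter only through the control libraries, in which they were high, so their fall is not independent of it.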

How the data were processed

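Mouse CGR8 libraries were grouped by the labels, with 2 per condition. Per the methods and labels, the authors aligned SOLiD reads to mm10 with LifeScope, left out reads with multiple matches, kept 26 to 36 nt matches for footprints and counted reads on the 5' UTR, ORF and 3' UTR of 1 transcript per gene. The deposited values are a normalized signal, for which the authors scaled footprints by spike-in reads and the transcriptome by DESeq2 size factors. Picard 1.38 is named in the submitters' processing notes.

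Dividing each deposited value by that of a single read gave whole reads for 100% of the values (tolerance 0.001). The tests had been planned for counts and were run on these reads with edgeR 4.0.16 and limma 3.58.1 in R 4.3.3, keeping transcripts that reached 10 reads in 2 or more libraries, with the authors' factors or TMM. The 5' UTR against ORF fit held a term for each library, region and region by drug. DESeq2 1.42.0 and limma on log2(normalized value + 1) were alternatives. The fits were tested on simulated data. Symbols came from GENCODE M21. Python 3.11.15 was used otherwise. The coding transcripts were the leading 14534 listed, of which 131 have no symbol.

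Members, gene lists and tests were chosen with earlier results of these data known. Genes were named by rule, namely the catalytic subunits, the 3 largest and 3 smallest ORF decreases per drug with both same-numbered pairs moving alike, the 3 largest and smallest 5' UTR against ORF terms, the 3 highest and lowest translation efficiencies and members that went against their class. Psmb4, Psmg2, Psmd3, Pomp and Sem1 were added after their values were seen. The 5' UTR values of Psmd6 lie outside the rule, and some members that went against their class are counted without a name. SE values are Wald errors of the fit. Intervals and floors cover counting error only.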

Additional observations from a re-analysis of the deposited data

How the results depend on the processing

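Of the counts of calls and class values recomputed under alternatives, 268 stayed within 1.5 times the count or within 1 SD of the replicate pairs and 41 did not. The 268 include comparisons that had to stay. Each replicate's 5' UTR share lies within 1 SD of the mean of both by arithmetic. In the cap, the limit of 100 control footprints left out no member and repeated the main value. TMM scaling, which sets the bulk of transcripts to no change, left 31 members called on the ORF with DMDA-PatA (15 raised), 24 with puromycin (14 raised), 20 in DMDA-PatA against puromycin and 23 in harringtonine against puromycin. Under it the log2 fold changes on the ORF turned positive with DMDA-PatA for Psmb6 (0.41), Psmb7 (1.02), Psma3 (1.58) and Psmd6 (1.31), with harringtonine for Psmb6 (0.0676), Psmb7 (1.44), Psmd13 (2.16), Psmg4 (2.14) and Psmd6 (1.499), and with puromycin for Psmb6 (0.16), Psmb7 (1.32), Psma3 (2.11), Psmg4 (1.56) and Psmd10 (1.39), and on the 5' UTR the values turned negative for Psmc2 with harringtonine (-0.41) and Psmg3 with puromycin (-0.00923). Harringtonine against puromycin gave 19 calls with the factors of DMDA-PatA and harringtonine exchanged and 3 with only these groups. Values close to 0 changed sign, namely Psmb5 relative to all transcripts with DMDA-PatA (0.0506 with median-of-ratios factors, 0.10 with equal total reads and 0.0423 with only the 2 groups), Psmb6 relative to all transcripts with harringtonine (-0.00755 without a filter and -0.11 with equal total reads) and the translation efficiency of Psmd8 (-0.0932 with equal total reads). The cause was not tested.

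Without members that share over 10% of their 30 nt words, an alternative chosen after seeing the data, the fold inhibition of the 20S core came to 29.1 (DMDA-PatA), 5.17 (harringtonine) and 3.86 (puromycin) under these drugs. As a ratio of summed footprints it was 5.26 for the core with harringtonine and 4.08 with puromycin, and 4.25 and 5.59 for the assembly factors, which were at 4.48 with puromycin over members with at least 100 control footprints. Taken over summed reads, the 5' UTR share of the core was 1.03% (control), 33.3% (DMDA-PatA) and 17.7% (harringtonine). That of the cap was 1.53%, 27.4% and 19.02% in the same order and 10.96% for puromycin, and that of the assembly factors was 1.28%, 25.5%, 17.9% and 7.38%.

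Leaving out 1 replicate number, a control and a drug library together, gave a fold inhibition with harringtonine of 5.77 to 7.21 for the core and 6.06 to 8.01 for the cap, with puromycin of 4.11 to 4.54 for the core, and with DMDA-PatA of 9.71 to 19.4 for the assembly factors. With 1 library left out the calls ranged from 0 to 13 in harringtonine against puromycin, from 18 to 31 relative to all transcripts with DMDA-PatA, and on the 5' UTR from 8 to 19 for DMDA-PatA, from 11 to 26 for harringtonine and from 0 to 1 for puromycin (edgeR). Values that did not pass and changed sign when a library was left out were those relative to all transcripts of Psmb5 with DMDA-PatA (-0.20 to 0.12) and with puromycin (-1.01 to 0.37) and of Psmb6 with harringtonine, which passed at its lower end without harringtonine replicate 2 (-1.81 to 0.93), the 5' UTR changes of Psmc2 with harringtonine (-0.22 to 0.84), Psmf1 (-5.26 to 1.61) and Psmg3 (-0.30 to 0.38) with puromycin, the 5' UTR against ORF terms of Psmg4 (-3.80 to 0.65) and Psmf1 (-3.49 to 3.19) with puromycin, and the translation efficiency of Psmd8 (-0.0827 to 0.15).

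The replicate numbers of the libraries gave correlations of deviations of -0.0211 to 0.0511 over 12298 transcripts, so they were read as numbers only. With the replicate number as a block, 17 members were called on the 5' UTR with DMDA-PatA and 18 with harringtonine, Psmc2 with DMDA-PatA (-1.72) and Psma5 with harringtonine (1.99) lost their call, and Psmb6 relative to all transcripts with harringtonine was at -0.17. The low reads of the drug libraries limit the members with few reads, such as Psma3, Psma5, Psmb5 and Psme2.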
